A study of Drosophila melanogaster with 2 samples.

Results

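Wide Pcl peaks are the 294 regions of at least 1300 bp in the deposited list of Polycomb-like (Pcl) binding sites of Drosophila melanogaster embryos, out of 2416 peaks on X, both arms of chromosomes 2 and 3 (2L, 2R, 3L, 3R) and chromosome 4, and of 2457 in all. They were chosen by width alone, so their widths, and everything else measured in the same list, are given as a description and were not tested. The list comes from ChIP-seq, the sequencing of immunoprecipitated chromatin, of whole, untreated embryos collected 0 to 8 h after egg laying, precipitated with the anti-Pcl antibody KW4-Pcl-D2. The protocol text covers both iso1 (y; bw cn sp) flies and transgenic flies and does not say which were used here. The ChIP sample is titled as replicates 1, 2 and 3, and 1 list stands for them, so no value below carries a replicate error; the input sample has no list and was not analysed here. All positions are on build BDGP5 (Release 5), and the number of reads behind each peak is unknown.

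Pcl is a PHD-finger protein that works with Polycomb repressive complex PRC2, which methylates lysine 27 of histone H3 and helps keep developmental regulators silent. In flies, Polycomb-group proteins gather at Polycomb response elements, short stretches of regulatory DNA, and the methylation mark spreads over broader domains around them. Genes with many such elements, the homeotic complexes above all, are classic targets.

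Wide peaks were a minority of the list and, being chosen for width, necessarily held a larger share of the covered sequence. They made up 12.2% of the arm peaks (95% exact interval 10.9 to 13.5%) and covered 549 of 2333 kb, or 23.5%. They ranged from 1304 to 4459 bp, with a median of 1659.5 bp and quartiles at 1432 and 2057.5 bp, whereas the 2122 narrower peaks had a median of 799 bp. Most members lay near the minimum: 100 were 1300 to under 1500 bp wide, 115 were 1500 to under 2000 bp, 59 were 2000 to under 3000 bp and 20 reached 3000 bp. The boundary is not a gap in the data. Just inside it lay the peaks 2L:18733564-18734867 (1304 bp, score 60.86), 3R:4016131-4017435 (1305 bp, score 70.81) and X:10773164-10774469 (1306 bp, score 128.51). Just outside it lay 2L:6498720-6500017 (1298 bp, score 93.65), 3R:26592615-26593910 (1296 bp, score 160.88) and 3R:4134635-4135926 (1292 bp, score 97.23).

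The authors' peak score, the peak caller's own value for each region, rose with width inside the wide class as well. The median score was 187 for wide peaks (quartiles 128 and 367) and 68.9 for narrower ones (58.1 and 90.9). It was 130 at 1300 to under 1500 bp, 172 at 1500 to under 2000 bp, 365 at 2000 to under 3000 bp and 959 at 3000 bp or more. Across the 294 wide peaks Spearman's rho between width and score was 0.65, and across the narrower ones 0.62; both values come from 1 list whose peaks are not independent. All of the 10 highest-scoring arm peaks, 48 of the top 50 and 93 of the top 100 were wide. Yet 42 wide peaks scored below 100, and 7 scored below 60, near the lowest score of the list, 50.01. Conversely, 40 narrower peaks scored at least as high as the median wide peak.

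**Figure D1:**
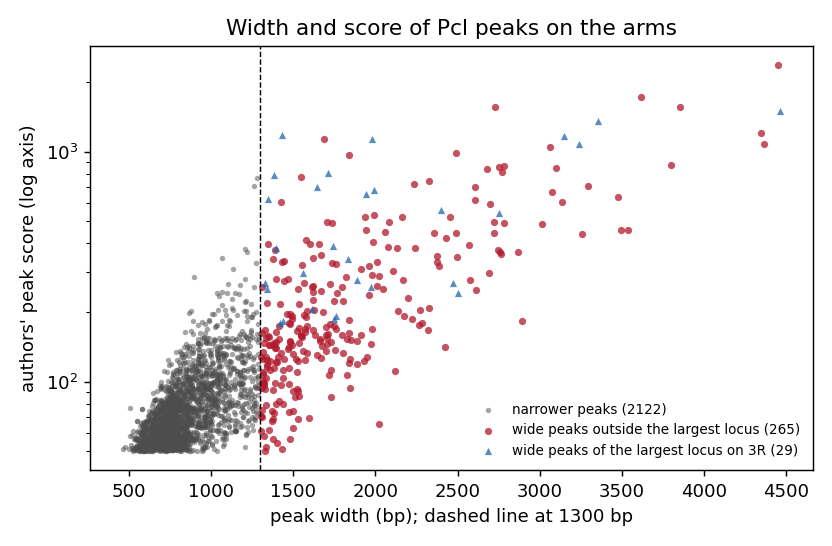
Width of each Pcl peak on the arms in bp (horizontal axis) against the authors' score on a log axis; grey points are narrower peaks, red points wide peaks and blue triangles the wide peaks of the largest locus on 3R. The dashed line marks 1300 bp; wide peaks span scores from 50.1 to 2377.39, and the 29 triangles all score at least 180.46.

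The 10 widest peaks lay on 4 arms and differed in how much company they had. The widest, 3R:12709403-12713861 (4459 bp, score 1496), sat in the locus with the most peaks and had 10 narrower peaks within 10 kb. The second, 2R:5864566-5869013 (4448 bp), had the highest score of the list, 2377.39, and 2 narrower peaks within 5 kb. The third, 3R:24407918-24412282 (4365 bp, score 1079), had 1 within 5 kb and its next wide peak 19.4 kb away. On X, the peak 19437393-19441740 (4348 bp, score 1203) had 3 narrower peaks within 5 kb, but the next wide peak was 1123 kb away.

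The remaining 6 of these peaks included members of groups of wide peaks and loners. The peaks 2L:592102-595955 (3854 bp, score 1558) and 2L:1969893-1973690 (3798 bp, score 872) had another wide peak 0.871 and 0.087 kb away. So did 3R:17381199-17384733 (3535 bp, score 457) at 1.48 kb and 2R:3916555-3920050 (3496 bp, score 458) at 1.64 kb. The peak X:5452394-5456010 (3617 bp, score 1736) had 1 narrower peak within 10 kb and the next wide peak at 31.7 kb. Alone among the 10, 3R:14061378-14064850 (3473 bp, score 638) had no other peak within 10 kb. Great width thus occurred both inside crowded loci and at a solitary site.

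Wide peaks lay closer to other peaks than narrower peaks did. The median gap from the edge of a wide peak to the nearest peak of any width was 1.93 kb (95% exact interval from the ordered values 1.41 to 2.55 kb), against 7.32 kb (6.73 to 8.08 kb) for narrower peaks. A peak followed or preceded at under 1 kb in 37.1% of wide peaks (109 of 294) and in 18.7% of narrower ones (397 of 2122). Peaks on both sides within 10 kb flanked 40.1% of wide and 20.5% of narrower peaks. Neither side held a peak within 10 kb for 69 wide peaks (23.5%) and 909 narrower peaks (42.8%). All intervals treat peaks as independent, cover counting error only and are likely too narrow, since neighbouring peaks belong together.

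A larger share of wide peaks than of narrower peaks had a narrower satellite peak nearby. Within 5 kb, 165 of 294 wide peaks had at least 1 narrower peak (56.1%, interval 50.2 to 61.9%), against 835 of 2122 narrower peaks with another narrower peak (39.3%, interval 37.3 to 41.5%). Within 10 kb the shares were 72.4% (67.0 to 77.5%) and 54.6% (52.4 to 56.7%). The mean number of narrower peaks within 10 kb was 1.77 per wide peak and 1.05 per narrower peak. At least 3 of them surrounded 76 wide peaks (25.9%) and 264 narrower ones (12.4%). The satellites showed little preference for a side. Pairs of a wide peak and a narrower peak within 5 kb numbered 294, and a narrower peak near several wide peaks counts once for each. The narrower peak lay toward lower coordinates in 142 pairs and toward higher ones in 152, or 51.7% (interval 45.8 to 57.5%).

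As a difference, the excess in narrower peaks per reference peak was largest in the first 1 kb, and it extended to the end of the range examined. In the first 1 kb there were 0.303 narrower peaks per wide peak and 0.170 per narrower peak. Between 4 and 5 kb the values were 0.153 and 0.0905, between 9 and 10 kb 0.129 and 0.0877, and between 19 and 20 kb 0.133 and 0.0575. Without the largest locus on 3R the first bin held 0.253 and 0.143, and the last 0.0755 and 0.0499. In each of the 20 bins the value was higher around wide than around narrower peaks, with and without that locus. As a ratio the excess was not largest in the first 1 kb. Between 13 and 14 kb, for example, the values were 0.180 and 0.0707, and 0.147 and 0.0577 without that locus.

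**Figure D2:**
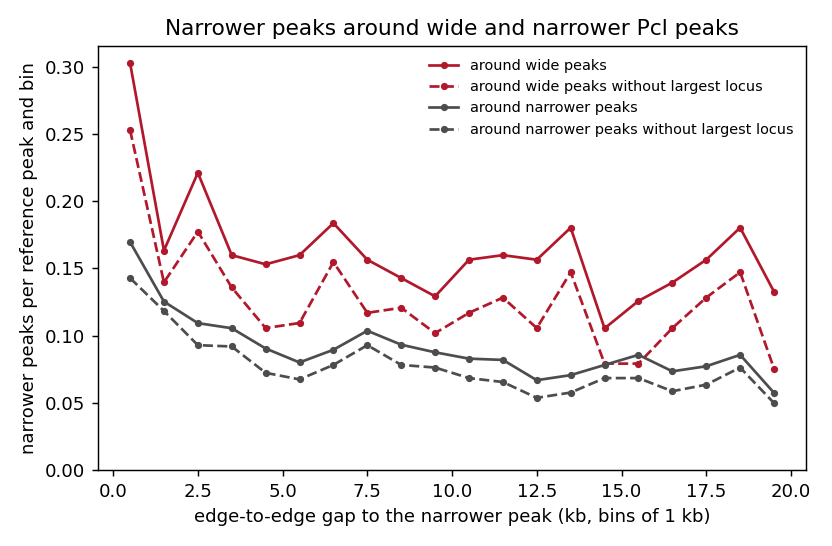
Mean number of narrower peaks per reference peak (vertical axis) in 1 kb bins of the edge-to-edge gap up to 20 kb (horizontal axis), around wide peaks (red) and narrower peaks (grey), with all loci (solid) and without the largest locus (dashed). The solid red line falls from 0.303 in the first bin to 0.133 in the last and stays above the solid grey line, which falls from 0.170 to 0.0575.

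Score moved with this difference. When peaks were compared inside bands of the authors' score, the larger share of wide peaks with satellites was seen in the lowest band only. Below a score of 75, 11 of 21 wide peaks (52.4%, interval 29.8 to 74.3%) and 392 of 1239 narrower peaks (31.6%, 29.1 to 34.3%) had a narrower peak within 5 kb. From 75 to 100 the shares were 33.3% (7 of 21, 14.6 to 57.0%) and 43.9% (215 of 490, 39.4 to 48.4%). From 100 to 200 they were 50.4% (58 of 115, 41.0 to 59.9%) and 55.8% (202 of 362, 50.5 to 61.0%). At 200 or more they were 65.0% (89 of 137, 56.4 to 72.9%) and 83.9% (26 of 31, 66.3 to 94.5%). The bands did not equalise score: in each of them the wide peaks had the higher median. From the lowest band up, the medians were 65.4 against 59.8, 91.6 against 84.0, 147 against 123 and 382 against 243. Within 10 kb the same order held in every band, with 81.0% of wide and 93.5% of narrower peaks at 200 or more. In both classes the share was highest in the top band. The part of score in the satellite counts was not tested, and because width and score come from the same call the list offers no measure independent of both.

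**Figure D3:**
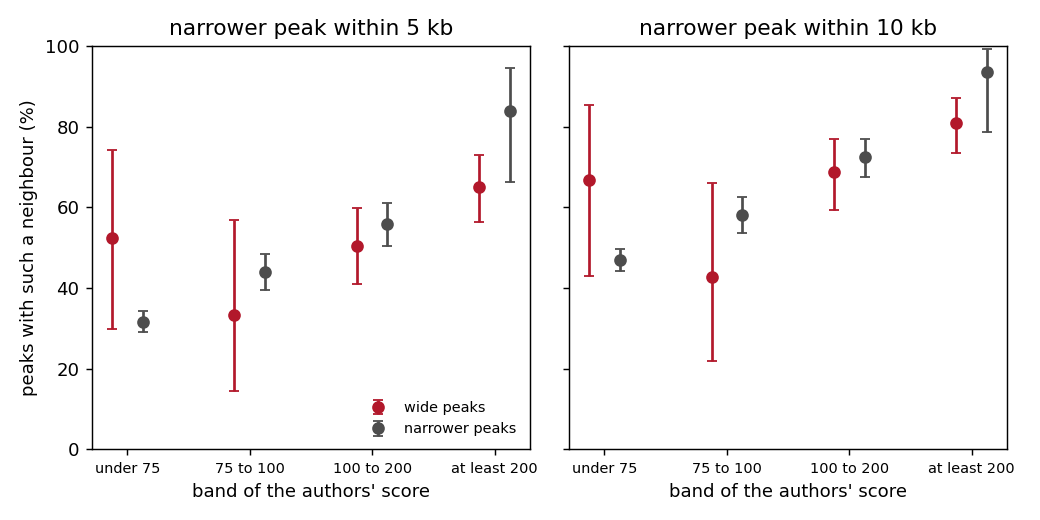
Share of wide (red) and narrower (grey) peaks with a narrower peak within 5 kb (left) and 10 kb (right), in percent, by band of the authors' score; bars are 95% exact binomial intervals over the peaks of each band, covering counting error only. From a score of 75 upwards the grey points are the higher ones, for example 83.9% against 65.0% within 5 kb at a score of 200 or more.

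Among the wide peaks themselves, satellites did not increase steadily with width. A narrower peak within 5 kb was present for 57% of those of 1300 to under 1500 bp, 48.7% of those of 1500 to under 2000 bp, 64.4% of those of 2000 to under 3000 bp and 70% of those of 3000 bp or more (14 of 20, interval 45.7 to 88.1%). The peaks of 1000 to under 1300 bp, outside the class, reached 49.0% (212 of 433) and those under 1000 bp 36.9% (623 of 1689). The step at 1300 bp was therefore not a break in this measure.

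The satellites were somewhat wider and higher-scoring than other narrower peaks. The 239 narrower peaks within 5 kb of a wide peak, 11.3% of all narrower peaks, had a median width of 913 bp and a median score of 80.25, against 788 bp and 68.1 for the 1881 farther away. With the largest locus left out the 188 remaining satellites had medians of 894 bp and 75.9. By gap, the median score was 82.5 under 1 kb, 99.6 from 1 to 2 kb, 71.7 from 2 to 5 kb, 76.3 from 5 to 10 kb, 70.6 from 10 to 50 kb and 67.5 at 50 kb or more. The highest-scoring narrower peaks of the arms were themselves close to other peaks. The first, 3R:2826119-2827398 (1280 bp, score 769), lay 4.69 kb from a wide peak, and the next, 3R:12707767-12709030 (1264 bp, score 712), lay 0.372 kb from the widest peak of all.

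Wide peaks also lay near one another. The median gap from a wide peak to the next wide peak was 18.5 kb (interval 13.5 to 28.0 kb; 27.1 kb without the largest locus), whereas a narrower peak was a median of 120 kb (110 to 133 kb) from its nearest wide peak. Another wide peak lay within 5 kb of 29.9% of wide peaks, within 10 kb of 38.4%, within 50 kb of 61.9% and within 100 kb of 69.0%. For narrower peaks the corresponding shares were 11.3%, 16.8%, 35.2% and 46.0%. Distances were spread broadly, from 0.059 kb to 2120 kb. In 45 cases 2 wide peaks of 1 locus followed each other with no peak between them, and the gap was under 1 kb in 23 of these.

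**Figure D4:**
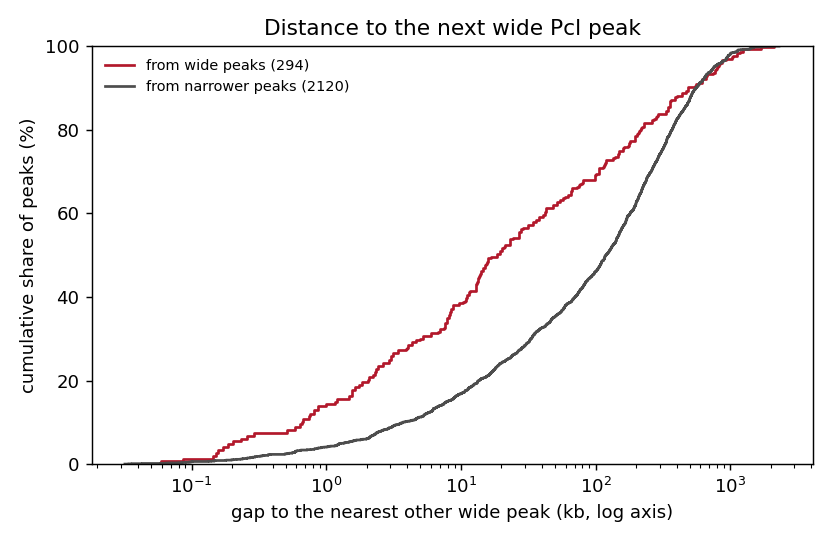
Cumulative share of peaks in percent (vertical axis) by the gap to the nearest other wide peak in kb on a log axis, for wide peaks (red) and for narrower peaks on arms with a wide peak (grey). The red curve reaches 38.4% at 10 kb and 69.0% at 100 kb, and the grey curve about 16.8% and 46.0%.

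Close spacing at this scale depends on where the peak caller ended one region and began the next. With neighbours at gaps under 1 kb joined, the 294 wide peaks fell into 268 regions. Of these, 185 were single peaks, and 83 joined regions held the other 109 wide peaks. The longest such region, 3R:12765898-12781668, was 15771 bp long and consisted of 9 peaks, 4 of them wide. The second, 3R:12703053-12714800, held the widest peak and 6 narrower ones over 11748 bp. The third, 3R:12502227-12512423, held 3 wide peaks among 6. Joining also brought 131 regions made only of narrower peaks to at least 1300 bp. The part of such splitting in the spacing was not tested.

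Wide peaks were shared unevenly among loci. With peaks of any width joined by gaps under 10 kb, the arm peaks formed 1421 loci, of which 202 (14.2%, interval 12.4 to 16.1%) contained a wide peak. These 202 loci held 441 narrower peaks, 20.8% of all. In 69 loci a wide peak stood alone, in 90 a single wide peak had narrower peaks beside it, and 43 loci held several wide peaks. The 43 loci accounted for 135 wide peaks (45.9%), with 26 loci of 2, 12 of 3, 3 of 4, 1 of 6 and 1 of 29. Wide peaks without narrower company were rare among these: 2 of the 43 loci consisted of wide peaks only. A locus with more peaks has more chances to hold a wide one, so part of the following rise is a matter of counting. The share of loci with a wide peak went with their size. It was 7.06% for single peaks (69 of 978), 24.2% for 2 to 4 peaks (95 of 393), 73.8% for 5 to 9 peaks (31 of 42) and 87.5% for 10 or more (7 of 8). The share of peaks that were wide was 7.06%, 12.2%, 21.7% and 24.3% in these classes. The last class includes the largest locus on 3R, where 27.1% of 107 peaks were wide, so the last step rests in part on that locus.

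**Figure D5:**
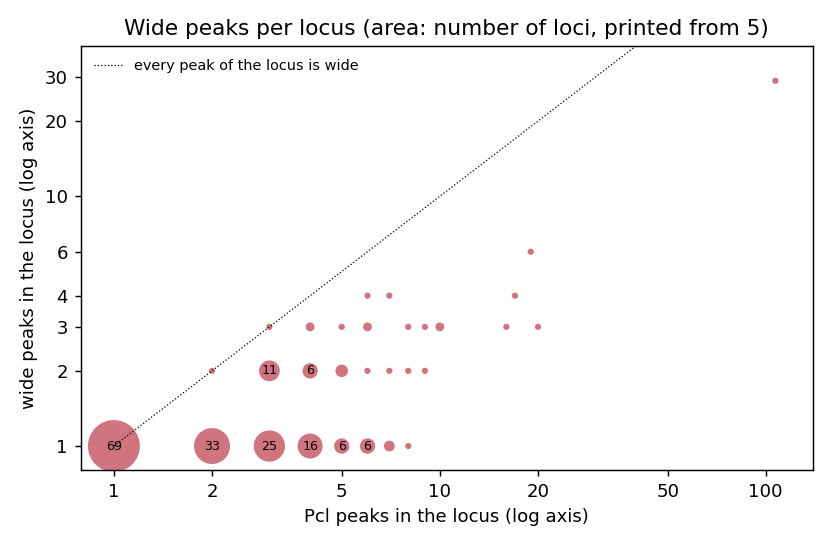
Number of peaks (horizontal) and of wide peaks (vertical) in each of the 202 loci with a wide peak, both on log axes; the area of a point is the number of loci there, printed where it is at least 5, and on the dotted line every peak is wide. The largest group is 69 loci of a single wide peak, and the farthest point is the locus with 29 wide peaks among 107.

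Inside loci a wide peak usually carried the highest score. In loci with 1 wide peak, that peak did not lie between others more often than the peaks of those loci as a whole. In 115 of 133 loci with a wide peak and at least 1 other peak (86.5%, interval 79.5 to 91.8%), a wide peak had the highest score. These 133 loci include the 43 with several wide peaks. In 2 of those no peak was narrower, so a wide peak had to score highest. Width and score rose together in this list, and the part of that in the share was not tested. The single widest peak had the highest score in 110 of the 133 loci (82.7%) and in 210 of 310 loci made only of narrower peaks (67.7%). In the 57 loci of 3 or more peaks with 1 wide peak, that peak lay between others in 25 (43.9%, interval 30.7 to 57.6%). Of all 234 peaks in those loci, 120 (51.3%) lay between others. In this pooled share loci with more peaks weigh more, whereas each locus gives 1 wide peak, so the shares are weighted differently.

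The locus with the most wide peaks, 3R:12487002-12805868, held 29 of them, 9.86% of all, together with 78 narrower peaks. From general knowledge of the Release 5 map, and not from an annotation used here, this stretch is the bithorax complex, the homeotic gene complex that patterns the posterior thorax and the abdomen. Its wide peaks were 1328 to 4459 bp wide (median 1759 bp) and scored 180.46 to 1496.10 (median 389). Its narrower peaks had a median score of 83.2 and reached 712. Wide peaks covered 18.4% of its length and all peaks 40.2%, and the centres of successive wide peaks were a median of 7.92 kb apart. The first was at 12488303-12489721 (1419 bp, score 180.46) and the last at 12792553-12795053 (2501 bp, score 244). They were unevenly spread: no wide peak lay in the 44.0 kb between 12544829 and 12588877, nor in the 28.9 kb between 12590586 and 12619508. Before the midpoint 10 of 48 peaks were wide (20.8%), with a median score of 269. After it 19 of 59 were wide (32.2%), with a median of 620. Some stood out in score for their width. The peak 12672368-12673801 was 1434 bp wide and scored 1178, whereas 12778141-12779575 was 1435 bp wide and scored 183.

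The second locus, 3R:2690019-2762802, held 6 wide and 13 narrower peaks over 72.8 kb. By the same general knowledge it lies in the Antennapedia complex, which holds the homeotic genes of the head and anterior thorax. Its limits follow from the 10 kb rule and need not be those of the complex. The locus before it, with 2 wide peaks, was 10824 bp away, and the locus after it, with 3, was 17617 bp away. In map order its wide peaks were 1681, 1668, 1425, 2607, 1495 and 2074 bp wide and scored 202, 247, 602, 614, 144 and 385. The highest score belonged to the widest of them, at 2728712-2731318, with a near equal score at 2718505-2719929, the narrowest of the 6. The narrower peaks of this locus had a median score of 68.7.

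On 2R, the locus 7402016-7484702 held 4 wide and 13 narrower peaks over 82.7 kb. By general knowledge of the Release 5 map this is the region of engrailed and invected, paired homeobox genes of segment polarity. Its wide peaks scored 850 (3096 bp), 128 (1337 bp), 79.99 (1397 bp) and 361 (2765 bp) in map order. The wide peak at 7426114-7427510 thus scored below the median of its own narrower neighbours, 82.5. The locus was sparsely filled, with 10.4% of its length under wide peaks.

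The other loci with 4 wide peaks were compact. At 2R:3905812-3929401, 23.6 kb long, 4 wide peaks stood with 2 narrower ones, covered 37.5% of the length and scored 396, 288, 458 and 146. At 2L:578417-600676, 22.3 kb long, 4 wide peaks stood with 3 narrower ones and covered 39.7%. Their scores were uneven, at 258, 1558, 143 and 91.2. In both loci wide peaks outnumbered narrower ones, unlike in the 3 longer loci above, where 23.5 to 31.6% of the peaks were wide.

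At the other extreme, the 69 lone wide peaks were slightly narrower and lower in score. Their median width was 1573 bp and median score 156, against 1676 bp and 207 for the 225 wide peaks with a neighbour. A score of 200 or more was reached by 21 of them (30.4%) and by 116 with neighbours (51.6%). Among the 909 lone narrower peaks 2 reached it. The most isolated members were 2R:6877059-6878609 (1551 bp, score 156), 160 kb from any peak, 3R:18186586-18188157 (1572 bp, score 125), 151 kb away, and 2L:22022437-22023981 (1545 bp, score 160), 146 kb away. The peak named last is the final peak of 2L in the list, so its distance is to the lower-coordinate side only. The 3 lowest scores among wide peaks all belonged to lone ones. These were 3R:7838493-7839819 (1327 bp, score 50.1), 3L:5921655-5923086 (1432 bp, score 50.99) and 2L:15729610-15730946 (1337 bp, score 51.85).

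Across the arms, 3R carried 128 wide peaks, 2R 56, 3L 48, 2L 44 and X 18, while chromosome 4, with 2 peaks, had none. The share of an arm's peaks that were wide was 16.2% on 3R (interval 13.7 to 18.9%) and 14.5% (11.9 to 17.3%) there without the largest locus. It was 11.3% on 2L (8.36 to 14.9%), 10.4% on 2R (7.97 to 13.3%), 9.47% on X (5.71 to 14.6%) and 9.45% on 3L (7.05 to 12.3%). Per Mb of the span that an arm's peaks cover, 3R had 4.61 wide peaks (3.57 without the largest locus), 2R 2.88, 3L 2.10, 2L 2.02 and X 0.866. The 18 wide peaks of X had a median score of 351, against 158 to 207 on the other arms, while narrower peaks had medians of 68.2 to 71.3 on all 5 large arms.

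The grouping of wide peaks varied from arm to arm. On 2R the median gap to the next wide peak was 7.95 kb, and 35 of 56 wide peaks (62.5%, interval 48.5 to 75.1%) shared a locus with another. On 3R the gap was 11.3 kb (19.4 kb without the largest locus) and 57.8% shared a locus (45.5% without it). On 3L the gap was 107 kb and 9 of 48 (18.75%, interval 8.95 to 32.6%) shared one, so its 48 wide peaks were spread over 43 loci. On X it was 67.0 kb and 2 of 18 shared one, and on 2L 63.3 kb and 15 of 44 (34.1%). Satellites gave another order, in which the place of 3R rested on its largest locus. A narrower peak within 5 kb was present for 63.3% of wide peaks on 3R, 58.3% on 3L, 55.6% on X, 55.4% on 2R and 34.1% on 2L. For narrower peaks the shares were 47.5%, 35.4%, 41.3%, 38.3% and 29.7%, lower than for wide peaks on each of these arms. Without the largest locus the shares on 3R were 52.5% of wide peaks, below 3L, X and 2R, and 40.7% of narrower peaks, below X. Wide peaks of 3L thus often had narrower company but seldom wide company.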

How the data were processed

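ChIP-seq of Pcl gave 1 deposited peak list. Per the submitters' processing notes, Bowtie and build BDGP5 were used, and MACS called the peaks, per the file headers. For versions, settings and the combining of replicates, nothing is stated in the labels or header. The deposited score is the caller's own value on an unstated scale and was used only within the list. It gives no read counts, so depth is unknown. The members, groupings and comparisons were chosen with earlier results of these data known.

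Starts were converted to 1-based positions. Gaps are the bases between peak edges on 1 arm, and "within" includes the limit. Loci join gaps under 10 kb. Shares carry exact (Clopper-Pearson) 95% intervals and medians exact intervals from ordered values, for counting error only. No test was run, because width chose the members and the other measures come from the same call. Regions named are the 10 widest peaks, the 5 loci with most wide peaks, the 3 on either side of the minimum, and the 3 lowest-scoring and 3 most isolated; the narrower peaks named by score, the joined regions and the comparison within the largest locus were chosen after values were seen. No genome or gene table of Release 5, the build of the peaks, was available, so no peak was assigned to a gene or sequence. Python 3.11.15, pandas 2.3.3 and SciPy 1.17.1 were used, and the searches were tested on simulated data.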

Additional observations from a re-analysis of the deposited data

Results flagged for a closer look

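Signal was also present outside the chromosome arms, in data the results do not use. The list holds 41 peaks on unplaced, heterochromatic and mitochondrial sequences, of which 2 were at least 1300 bp wide; the widest measured 1634 bp and scored 1659.23.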

How the results depend on the processing

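The share with a narrower neighbour was higher for wide than for narrower peaks under each of the 6 alternatives, by 8.58 to 25.2 percentage points within 5 kb (16.8 as reported) and by 10.7 to 23.1 within 10 kb (17.9 as reported). None of the 6 compared peaks of like score. Inside the bands of score from 75 upwards, the share was higher for narrower peaks. In what follows, each set of 4 shares gives wide and then narrower peaks within 5 kb, then both within 10 kb. A minimum width of 1000 bp gave 727 wide peaks, shares of 41.3, 29.7, 57.2 and 44.7% and a median gap to the next wide peak of 13.2 kb. A minimum of 1600 bp gave 160 wide peaks, shares of 66.9, 41.7, 80 and 56.9%, a gap of 50.8 kb and 40% of wide peaks sharing a locus. Scores of at least 60 gave shares of 48.8, 36.7, 62.7 and 50%. Joining gaps under 1 kb gave shares of 32.6, 24, 52.4 and 41.7% and 38.6% sharing a locus. Without the locus with the most peaks, 37.1% of narrower peaks had another within 5 kb and 40% of wide peaks shared a locus. Between peak centres, the shares within 5 kb were 48.6 and 35.96%. Sharing of a locus was 37.8% with a locus gap of 5 kb and 56.8% with 20 kb. Fewer or longer peaks follow from how these lists were made; other causes were not tested. The other 14 recomputed values stayed within the exact interval or, for numbers of peaks, within 1.5 times. Single replicates could not be left out. No paired analysis was possible because 1 list stands for all replicates. The planned search for genes at wide peaks was not run. Sites under the score cut-off are missing from every class of peaks.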
